A study of Mus musculus with 7 samples.

Results

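Regions of H3K4me2 that lay away from the ends of protein-coding genes and also carried H3K4me3 were described in cMoPs, the bone marrow progenitors that give rise to monocytes alone. Of 39395 merged H3K4me2 regions on the 19 autosomes, 1127 were members of this set. They were chosen by measured values, namely a peak in both WT H3K4me2 lists and at least 1 bp of overlap with a WT H3K4me3 peak, and by position, more than 1 kb from every end of a protein-coding gene of the mm10 RefSeq table. The mice carried either the WT form of the Zeb2 −165-kb enhancer or the variant labelled DE. For H3K4me2 there were 2 WT and 2 DE libraries, all of batch 2, and for H3K4me3 there was 1 WT library of batch 1, so the mark cannot be told apart from the batch. The labels give no age, no strain and no word on how many mice stand behind a library, so replicates may share a source. An MDP H3K4me3 sample and a cMoP IgG sample, both WT and of batch 1, were not analysed here. CUTAC, the assay, is antibody-guided tagmentation without added salt, in which the transposase cuts accessible DNA next to the mark, with 100000 cells per sample here. Of autosomal peaks, WT replicate 1 had 31217, WT replicate 2 had 27282, DE replicate 1 had 21237 and DE replicate 2 had 16584, while H3K4me3 had 6322.

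Trimethylation of lysine 4 on histone H3 is laid down mainly at active promoters by SET1 and MLL family methyltransferases, often where unmethylated CpG islands are bound by their CXXC partners. Dimethylation is broader and marks both promoters and enhancers. A region with both marks far from the annotated end of a coding gene may be a further promoter of that gene, the promoter of a non-coding gene, a tRNA gene with its own polymerase III start, or the downstream flank of a promoter. ZEB2 is a zinc finger repressor that binds E-boxes and is needed in the monocyte and dendritic lineages.

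The sequences shown here are those of 4 members that overlap an internal RefSeq start of a blood or cell cycle gene, since such starts made up the largest class of positions, and of the miRNAs beside 2 other members. Each start window holds 130 bases before the start and the 20 bases that begin with it or follow it, 150 bases in all, 5′ to 3′ on the strand of the gene, from the RefSeq start table of GRCm38.p6 (the mm10 build). Capitals mark matches, on either strand, to 8 short motifs whose shares are given with the start windows. Zeb2 is read from the minus strand at chr2:45110258-45110407, with its internal start at 45110277. Runx1, the core-binding factor of blood cells, is read from the minus strand at chr16:92697310-92697459. Cdk6, a G1 cyclin-dependent kinase, is read from the plus strand at chr5:3343763-3343912, and Bcl11a, a zinc finger repressor of globin genes, from the plus strand at chr11:24080565-24080714.
Zeb2: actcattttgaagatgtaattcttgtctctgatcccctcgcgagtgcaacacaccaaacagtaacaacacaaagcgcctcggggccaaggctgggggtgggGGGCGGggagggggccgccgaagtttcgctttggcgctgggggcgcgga
Runx1: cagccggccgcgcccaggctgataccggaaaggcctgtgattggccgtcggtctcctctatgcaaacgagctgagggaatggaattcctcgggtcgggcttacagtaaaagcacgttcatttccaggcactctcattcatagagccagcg
Cdk6: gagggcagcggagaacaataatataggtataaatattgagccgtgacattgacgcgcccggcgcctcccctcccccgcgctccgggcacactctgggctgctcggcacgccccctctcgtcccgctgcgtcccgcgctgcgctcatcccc
Bcl11a: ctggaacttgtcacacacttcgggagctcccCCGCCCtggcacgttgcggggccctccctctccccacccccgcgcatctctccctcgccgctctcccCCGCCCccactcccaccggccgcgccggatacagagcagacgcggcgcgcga
The GC content of these windows was 60.7%, 57.3%, 66.7% and 74.0%, and they held 11, 11, 17 and 18 CpG sites. The matches in capitals were all to GGGCGG, 1 in the Zeb2 and 2 in the Bcl11a window. The Runx1 and Cdk6 windows held no match to any of the 8 motifs. The H3K4me3 summit lay 142 bp from the Zeb2 start, 32 bp from that of Runx1, 656 bp from that of Cdk6 and 376 bp from that of Bcl11a. For the miRNAs, capitals mark the seed, bases 2 to 8 of the mature RNA, and the sequences are from the RefSeq miRNA table.
mmu-miR-142a-5p: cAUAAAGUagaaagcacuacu
mmu-miR-142a-3p: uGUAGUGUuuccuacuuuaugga
mmu-miR-142b: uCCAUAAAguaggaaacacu
mmu-miR-425-5p: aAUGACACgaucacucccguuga
None of these 4 seeds was shared with another. Mir142 is a miRNA gene of blood cells, with its arms at chr11:87756867-87756887 and chr11:87756903-87756925 on the plus strand, and Mir142b lies over it on the minus strand at chr11:87756906-87756925. The mature miR-425-5p lies on the plus strand at chr9:108568789-108568811.

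The values that chose the members are given here as a description. In WT replicates 1 and 2 the authors' fold over local background at the strongest H3K4me2 peak of a member had a median of 8.64 and 10.7. For H3K4me3 the median fold was 6.02, from 1.61 to 22.1. The highest was 110 in WT replicate 1, at Mpp7, where WT replicate 2 had 37.8. Members stood in the stronger part of the WT lists. Counting place as the percent of a list's peaks that are stronger, the median member was at 20.8 and 20.4 in WT replicates 1 and 2, against 46.9 and 52.5 for the 6801 regions away from gene ends without H3K4me3 and 18.0 and 17.3 for the 4198 gene-end regions with it. Places and folds of different lists are set side by side here only for each list's own order, since the lists differ in length. Within the H3K4me3 list the members sat near the middle, at a median place of 46.5, as did the gene-end regions at 45.6. H3K4me3 covered a median of 49.6% of a member, and the H3K4me3 summit lay within 100 bp of the summit of WT replicate 2 in 90.3% of members.

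At the distance limit, the members just outside 1 kb lay at Rac1 (1001 bp), Psmb10 (1004 bp) and Wdr1 (1005 bp), and the regions with H3K4me3 just inside it were at Eif4ebp2 (999 bp), Ifngr2 (999 bp) and Pfkp (998 bp). Their H3K4me3 folds were 3.92, 5.67 and 3.53 outside and 6.63, 9.55 and 4.36 inside. The folds on either side of the limit overlapped but reached higher inside it. So few regions do not show whether values differ across the limit. In the H3K4me3 list, 1204 of 6322 peaks (19%) lay over members, and 5 of those 1204 also reached into the 1 kb window of a gene end.

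Most members lay inside genes, and 47.8% of those on chromosomes with starts lay within 1 kb of a RefSeq start of any gene type. A coding gene contained 923 members, or 81.9% (95% Wilson interval 79.5 to 84.0), against 60.4% (59.2 to 61.6) of the regions away from gene ends without H3K4me3. The intervals here and below cover counting error only, and regions are not independent replicates, so no test was made. On the chromosomes for which the start table holds starts, 464 of 1091 members (42.5%) came within 1 kb of another RefSeq start of a coding gene, against 15.4% of the regions without H3K4me3. The start base itself was covered, counting starts of any gene type, in 350 members (32.1%) against 11.0%. For 743 of 917 members whose nearest coding gene had a known strand, the nearest end of that gene was its start (81.0% against 64.5%), and 629 of these lay downstream of it, inside the gene.

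**Figure D1:**
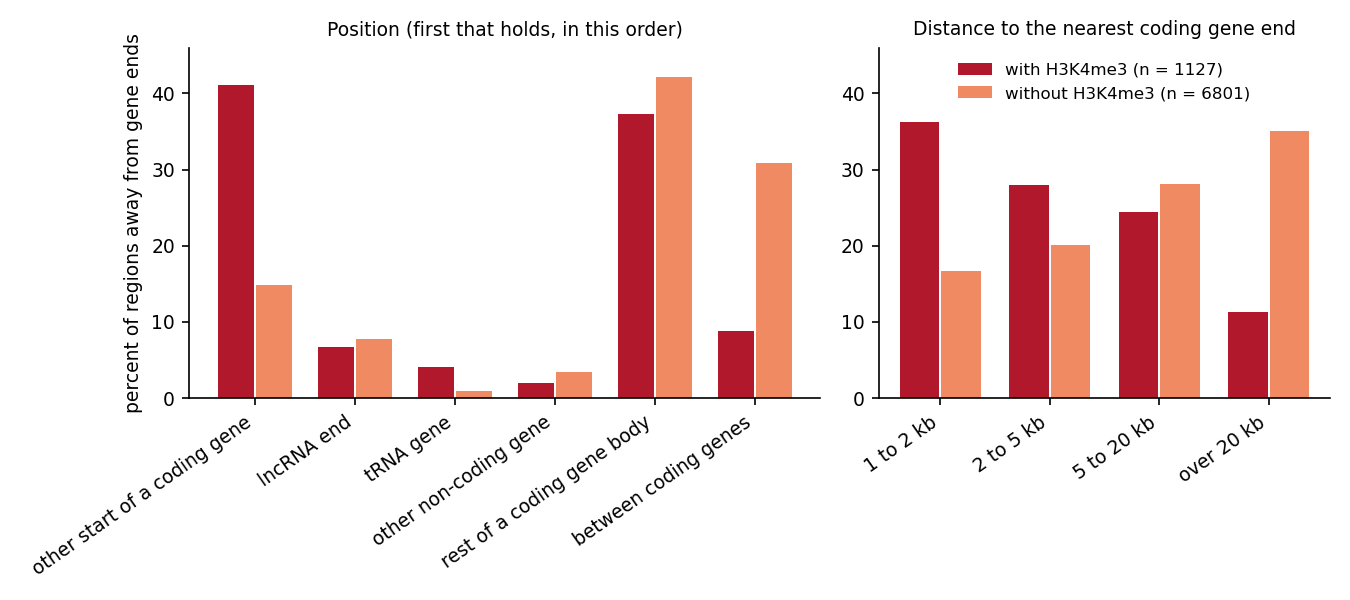
Position (left) and distance in kb to the nearest end of a protein-coding gene (right) of regions away from gene ends, as the percent of the 1127 regions with H3K4me3 (dark red) and of the 6801 without it (orange). Each region is counted once, in the first position class that holds. Another start of a coding gene took 41.2% and 14.9%, and the space between coding genes 8.87% and 30.8%. The 36 members of the autosome without starts are counted in the other classes. Coding genes with no start in the table could not add to the class of another start.

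By distance, 409 members lay 1 to 2 kb from a coding gene end, 315 at 2 to 5 kb, 276 at 5 to 20 kb and 127 farther off. The distant class was smaller than among regions without H3K4me3, 11.3% against 35%. A gene-end region called in both WT lists lay within 2 kb of 362 members (32.1% against 13.5%). After the starts of coding genes, 75 members were left near an lncRNA end, 46 near a tRNA gene, 22 near another non-coding gene, 420 in the rest of a coding gene body and 100 between genes. These classes hold 36 members of the autosome with no start in the table, which could not be counted at a start: 25 in a gene body, 5 near an lncRNA end, 4 near another non-coding gene and 2 between genes. Within 1 kb of the end of any gene that is not protein-coding lay 217 members, 19.3% (17.1 to 21.7), against 13.8% (13.0 to 14.6). The tRNA share was 4.08% (3.07 to 5.40) against 1.01% (0.803 to 1.28), and that of lncRNA ends was 13.9% against 9.54%. The 46 members near tRNA genes lay in 31 groups, which these intervals leave out of account.

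The RefSeq starts covered by members were rich in CpG. For 417 starts of 361 genes, 344 of them of coding genes, the 300-base window from 250 bases before to 50 after the start had a median GC content of 63.7% and a median ratio of observed to expected CpG of 0.82. At the 3691 starts in gene-end regions with H3K4me3 these were 63.0% and 0.85, and at the 844 starts in regions away from gene ends without H3K4me3 61.7% and 0.70. All 13560 autosomal starts more than 1 kb from coding gene ends had medians of 49.0% and 0.25, so in base composition the starts in members were closer to those at gene ends. Only 3708 of the 13560 were starts of coding genes, against 3417 of the 3691 at gene ends and 634 of the 844 without H3K4me3. The part of gene type in these differences was not tested.

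The 8 motifs were searched on both strands of those windows, and none of them contains another. GGGCGG, the box of SP and KLF factors, was in 68.1% of the starts in members, 61.6% of the starts in regions without H3K4me3, 72.6% of those at gene ends and 18.4% of all starts away from coding gene ends. GGAAGT, the core bound by ETS factors such as PU.1, was in 27.3%, 26.4%, 34.6% and 21.7% in the same order. CAGGTG, the E-box of ZEB proteins and E proteins, was in 14.9%, 20.9%, 13.6% and 21.0%. The windows differ in base composition and in how many are of coding genes, and the part of either in these shares was not tested. The others had shares at starts in members and at all starts away from coding gene ends of 14.1% and 17.9% for CAGCTG, a further E-box, 8.63% and 19.8% for TGTGGT of RUNX factors, 9.83% and 12.3% for TTGCNNAA of C/EBP factors, 5.28% and 9.36% for TGANTCA of AP-1, and 2.16% and 3.49% for the paired GAAA element of IRF factors.

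No DE call was needed to keep a member, but DE intervals entered the merging and could widen or join regions. The DE calls are therefore not fully independent of the choice. Without DE replicate 1 the rule kept 1159 members, and without DE replicate 2 it kept 1143. Of the 1127 members, 959 were called in both DE libraries (85.1%, 82.9 to 87.1), 76 in DE replicate 1 alone, 33 in DE replicate 2 alone and 59 in neither (5.24%, 4.08 to 6.69). Over all 18854 regions called in both WT lists, 63.1% were called in both DE libraries and 18.3% in neither. By library, DE replicate 1 called 91.8% of members against 77.4% of all such regions, and DE replicate 2 called 88.0% against 67.3%. The share called in both was 43.1% for regions away from gene ends without H3K4me3, 64.4% for gene-end regions without it and 87.4% for gene-end regions with it, where 3.64% (3.12 to 4.26) were called in neither. The interval of the last share in both, 86.3 to 88.3, overlapped that of the members. With 2 DE libraries and WT calls fixed by the choice of regions, no test of these shares was made, and each DE list held fewer peaks than either WT list.

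**Figure D2:**
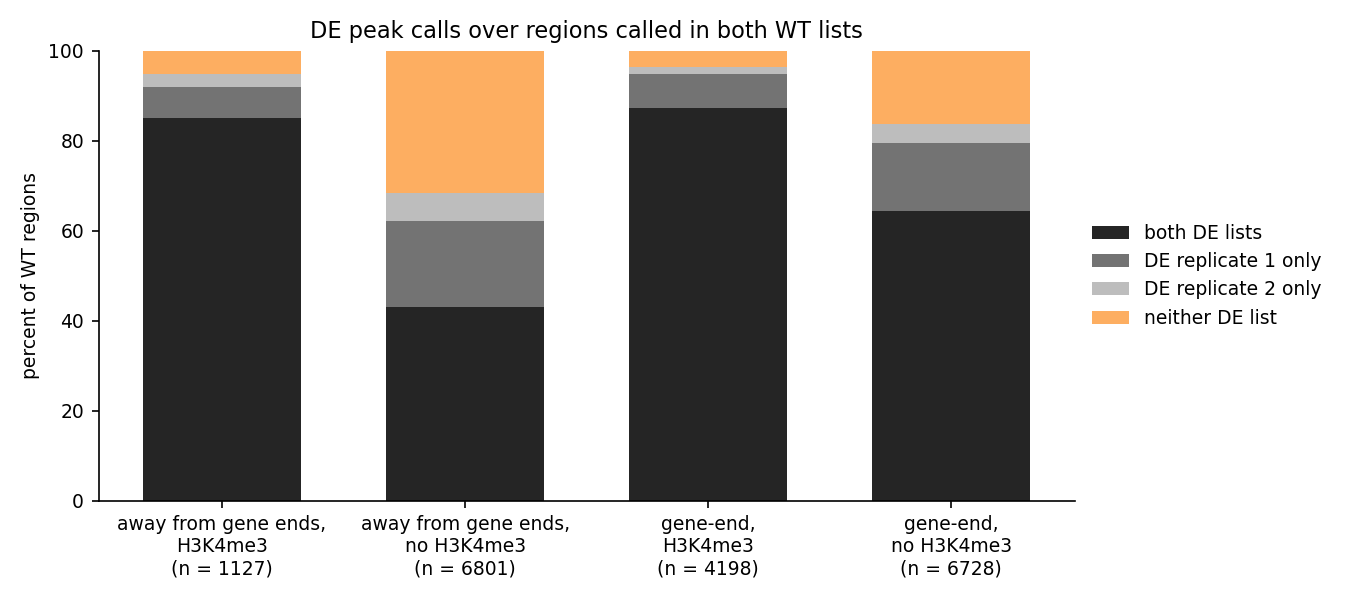
DE peak calls over the 18854 regions called in both WT H3K4me2 lists, as stacked percents of each of 4 classes of region. Called in neither DE list (orange) were 5.24% of the regions away from gene ends with H3K4me3 and 31.6% of those without it.

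The shares moved with strength in WT. When the 18854 regions were divided into 5 classes of equal size by mean place in the WT lists, 413 members fell in the strongest class and 62 in the weakest. The share called in both DE lists fell from 99.8% in the strongest class through 91.6%, 74.4% and 61.9% to 41.9% (30.5 to 54.3). Regions away from gene ends without H3K4me3 had 89.2%, 76.0%, 54.3%, 35.6% and 16.7% in the same classes, and gene-end regions with H3K4me3 99.4%, 93.0%, 76.5%, 62.2% and 36.2% (29.8 to 43.1). In each class the interval of the members lay above that of the regions without H3K4me3 and overlapped that of gene-end regions with it. Gene-end regions without H3K4me3 had 96.9%, 87.6%, 67.8%, 49.0% and 27.6%, and their intervals overlapped those of the members in the second class (85.7 to 89.2 against 87.9 to 94.3) and the third (65.4 to 70.1 against 68.4 to 79.7). The same order against regions without H3K4me3 held in 5 classes by the number of bases under WT peaks, from 51.0% against 16.3% in the narrowest to 97.6% against 69.4% in the widest. In those width classes, too, the regions without H3K4me3 were weaker, with a median place of 61.0 against 37.9 in the narrowest class.

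**Figure D3:**
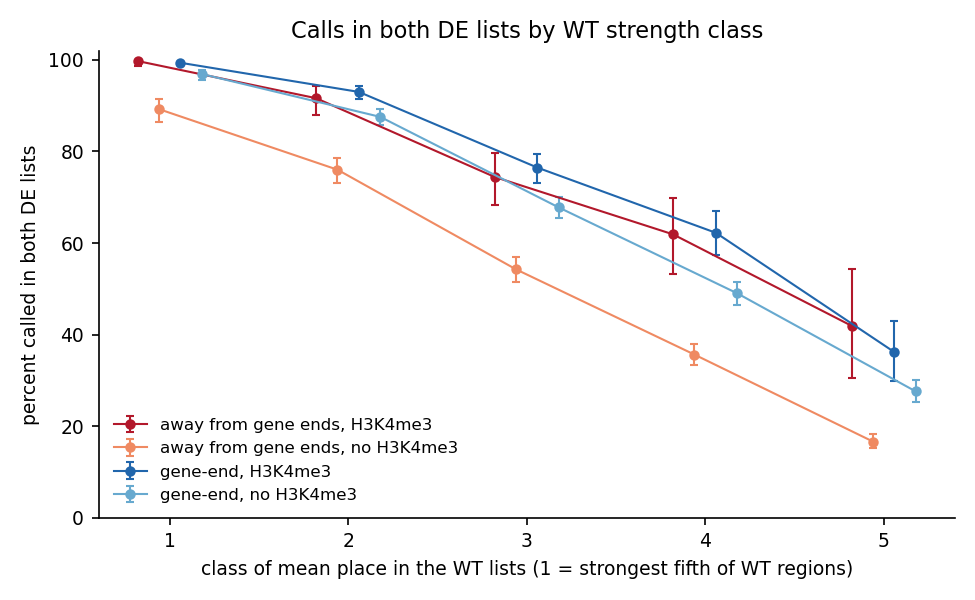
Percent of regions called in both DE lists (points, with 95% Wilson intervals) in 5 equal classes of mean place in the WT lists, from the strongest (1) to the weakest (5), for 4 classes of region. Members (dark red) run from 99.8% to 41.9% and regions away from gene ends without H3K4me3 (orange) from 89.2% to 16.7%.

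Members missing from the DE lists were weak and narrow in WT. The median mean place in the WT lists was 51.5 for the 59 members called in neither DE list, 44.4 for the 109 called in 1 and 18.0 for the 959 called in both. The median number of bases under WT peaks was 164, 217 and 350, and the median place in the H3K4me3 list was 61.2, 60.7 and 43.9. The ranges overlapped, since members called in both DE lists reached a mean WT place of 83.6 and the strongest of the 59 stood at 17.0. By position, 3.02% of members at another start of a coding gene were called in neither (14 of 464), 7.38% of those elsewhere in a gene body (31 of 420) and 5% of those between genes (5 of 100). The Wilson intervals of the first, 1.81 to 5.0, and of the gene body class, 5.25 to 10.3, did not overlap. For the share called in both DE lists they did, with 87.5% (84.2 to 90.2) and 85.2% (81.5 to 88.3). WT strength was not compared between the position classes. Without the autosome that has no starts, the gene body share was 31 of 395, or 7.85% (5.58 to 10.9). Members at genes of other autosomes that lack a start in the table could still be in that class.

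**Figure D4:**
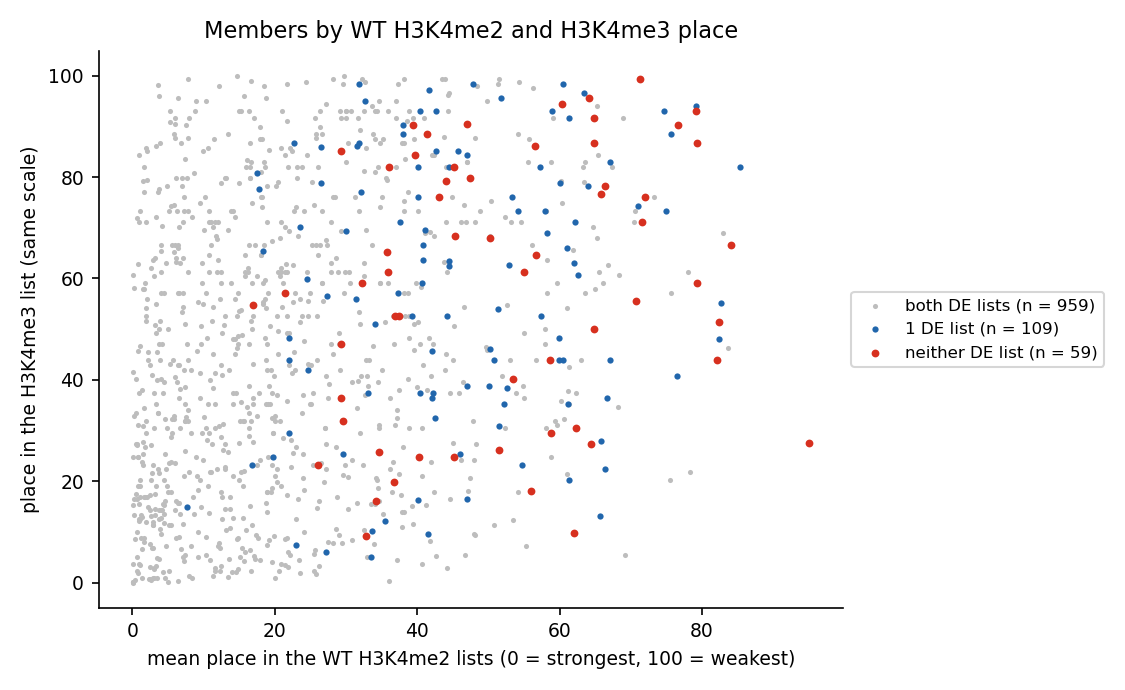
Each point is a member, placed by its mean place in the 2 WT H3K4me2 lists (x) and its place in the H3K4me3 list (y), both in percent with 0 the strongest, and coloured by the number of DE lists that call it. The 59 members called in neither (red) start at a mean WT place of 17.0.

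Among the 59, the strongest in H3K4me3 were in Rpl38, a ribosomal protein gene, Qk, an RNA-binding protein, Rpl17, a tRNA group near Borcs6, Tapbp, which loads peptides onto MHC class I, Kpna6, an importin, Slc3a2, the heavy chain of amino acid transporters, Hmgb1, a chromatin protein, Nasp, a histone chaperone, and Phip. At Rpl38 the region chr11:114669069-114669197 had folds of 12.3 and 4.44 in WT replicates 1 and 2 and of 7.93 for H3K4me3, and no DE peak. At Hmgb1 (chr5:149051667-149051990) the folds were 10.2, 5.32 and 8.12. In both, WT replicate 1 was high and WT replicate 2 low. At Tapbp (chr17:33920869-33921007), 373 bp from a start of the lncRNA gene Gm19412, the WT folds were 7.01 and 9.08. Slc3a2 held a group of 4 members at chr19:8712865-8714273, of which 3 were called in neither DE list and 1 in both. The one at chr19:8713736-8713982 covered an internal start of Slc3a2 and had WT folds of 7.21 and 7.72.

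The strongest members by H3K4me3 were of 2 kinds. The first kind had a high q at a low fold. A region between genes at chr14:124801571-124802225, 124 kb from Fgf14, led the list with a −log10 q of 65.7 for H3K4me3 and 387 and 562 in WT replicates 1 and 2, while its folds were 2.78, 14.1 and 9.49. The region chr7:145340940-145341438 near Mrgprd had an H3K4me3 fold of 2.64 at a −log10 q of 45.3, a region near Gm45871 a fold of 3.20 at 50.3, and chr12:120028676-120029014 near Tmem196, among the 10 strongest in WT, a fold of 1.95 at 12.2. These 4 regions lay between genes, and both DE lists called all 4, as they did 85.1% of all members. They were not checked against repeats or a list of problem regions, so their part in such values was not tested.

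The second kind had a high fold. The region chr9:107633139-107633571 in Gnai2, an inhibitory G protein alpha subunit of chemokine signalling, had the highest H3K4me3 fold of all members, 22.1, with 15.5 and 21.7 in WT and 10.4 and 12.8 in DE replicates 1 and 2. Near Slfn3 and over the lncRNA AI662270, chr11:83224235-83224503 had an H3K4me3 fold of 19.9 with 13.5, 20.7, 10.3 and 14.8 in the H3K4me2 lists in the same order. In Mafg, a small MAF transcription factor, the widest member of all (2589 bp) had an H3K4me3 fold of 18.2 and H3K4me2 folds of 27.1, 39.5, 21.2 and 31.4. The others of this kind were the member beside Mir142 (21.3 for H3K4me3), Usp7, a deubiquitinase gene (20.8), and Fbrs (19.5). All 10 members with the strongest H3K4me3 peaks were called in both DE lists, against 85.1% of all members. The region chr12:113424297-113425577 was high in every list, with WT folds of 32.1 and 41.9, DE folds of 37.0 and 20.5 and an H3K4me3 fold of 13.1. Its nearest protein-coding gene by the table was Adam6b, 64.0 kb away, and that name says nothing of other gene types at the locus.

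Of the 10 widest members 5 lay inside a coding gene, and of the 10 with the best WT places 2 did, Mpp7 and Dgkz, against 81.9% of all members. At chr17:13550673-13553173, 163 kb from Tcte2, a region of 2501 bp lay 921 bp from a start of the lncRNA gene 2700054A10Rik, with folds of 14.9 and 8.53 in WT against 2.46 for H3K4me3. The region chr9:121929474-121931922, 13.2 kb from Cyp8b1, had WT folds of 74.6 and 23.8 and DE folds of 17.1 and 9.999, so that WT replicate 1 stood above the other 3. In Dgkz, a diacylglycerol kinase, chr2:91963485-91963928 covered an internal start and had folds of 38.96, 57.1, 37.9 and 29.2 in the H3K4me2 lists and 8.25 for H3K4me3. The region chr4:118547064-118548729 near Tmem125 covered a start of the lncRNA gene Gm40237 and had the lowest H3K4me3 fold of all members, 1.61. Other wide members lay in Stam2, Ap5b1 and Hivep2, inside Runx2 at chr17:44734428-44736705, and beyond Commd3 at chr2:18607857-18609585. Every one of the 10 widest and of the 10 strongest in WT was called in both DE lists, against 85.1% of all members.

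At Zeb2 itself 4 members lay inside the gene, 4.22 to 8.56 kb from its annotated start. Each was called in both DE lists, as were 85.1% of all members. Of the 4, 3 were within 1 kb of the lncRNA gene Zeb2os. The member at the internal start shown above, chr2:45110049-45110495, had the strongest H3K4me3 of the 4, with a fold of 15.1 and a place of 4.07 in that list. Its WT H3K4me2 folds of 9.63 and 13.4 lay above its DE folds of 7.66 and 6.84. At chr2:45111058-45111406 the H3K4me3 fold was 12.3, with 8.01 and 4.19 in WT and 8.13 and 7.63 in DE, so WT replicate 2 was low and the other 3 were close together. The members at chr2:45108623-45108885 and chr2:45112993-45113224 had H3K4me3 folds of 8.40 and 8.77. In H3K4me2 the first had 7.93 and 7.17 in WT and 8.36 and 6.45 in DE, and the second WT folds of 3.39 and 6.76 around DE folds of 6.34 and 5.59. A fold is relative to its own library and background, and over all members called there the median fold was 8.0 and 6.90 in DE replicates 1 and 2, also below both WT medians. Differences in fold between libraries, here and at the genes that follow, were not tested and show no change by themselves.

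Of 20665 autosomal coding genes 928 (4.49%) had a member, either inside them or with them as its nearest gene. Of 20 C/EBP and PU.1 core regulators 6 had a member, 13 in all, and the 13 were called in both DE lists, against 85.1% of all members. At the same 20 genes there were 41 regions away from gene ends without H3K4me3, of which 23 were in both DE lists and 8 in neither. Spi1, which encodes PU.1, had members 14.2 and 15.3 kb from its nearest end, inside its gene bounds and with H3K4me3 folds of 6.36 and 3.93, with H3K4me2 folds of 10.2 and 7.96 in WT and 6.21 and 4.41 in DE for the first, and 16.3, 14.5, 7.55 and 5.01 for the second. At both, the DE folds were below both WT folds. The start table holds no Spi1 start, so how far these members lie from a start of Spi1 is not known here. Runx1 had 2 members at the internal start shown above, and the one over it had folds of 8.70 and 10.8 in the WT lists and 6.37 and 7.04 in the DE lists, and of 3.86 for H3K4me3. The other, chr16:92696625-92696977, had WT folds of 4.61 and 14.3 and DE folds of 15.8 and 11.1, so the groups overlapped there. Myb, a factor of proliferating progenitors, had 3 members in the 2.49 kb downstream of its start, with H3K4me3 folds of 9.74, 10.8 and 8.94. Their H3K4me2 folds were 5.77 to 17.2 in WT and 5.52 to 9.53 in DE, and WT replicate 2 was the highest of the 4 at each. Fli1, an ETS factor, had 3 inside the gene within 3.87 kb of an end. The strongest, chr9:32539293-32539561, reached 22.5 and 24.1 in the WT lists against 13.4 and 11.9 in the DE lists, and 7.51 for H3K4me3. Elf1, a further ETS factor, had 2 members at an internal start. At chr14:79515525-79515728 the WT folds, 9.69 and 10.6, were below the DE folds, 14.2 and 11.7, and at chr14:79516325-79516537 the WT folds, 7.93 and 11.5, were above the DE folds, 7.77 and 5.49. Myc had 1, with WT folds of 4.11 and 6.27, DE folds of 4.63 and 3.48 and an H3K4me3 fold of 4.78.

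**Figure D5:**
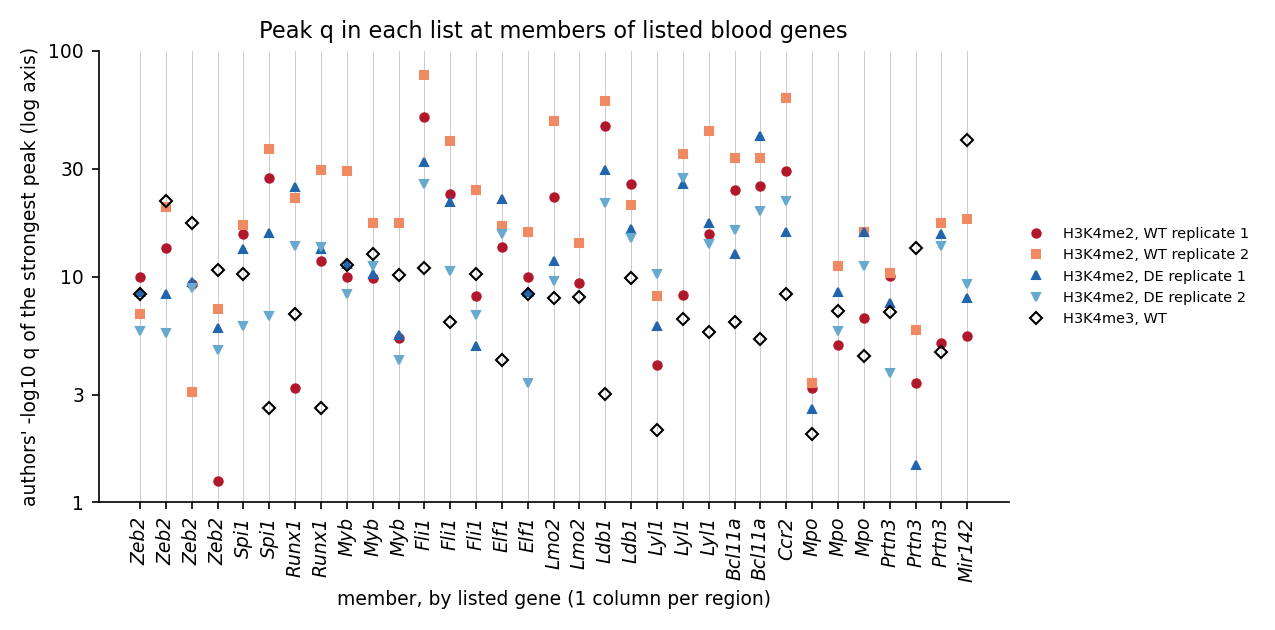
The authors' −log10 q (log axis) of the strongest peak of each list at members of 14 listed blood genes, 1 column per member; a missing symbol means no peak in that list. At the second Zeb2 column, the member over the internal start, H3K4me3 (open diamond) reaches 21.7, above the 4 H3K4me2 values of 5.62 to 20.3.

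Of 16 genes in the ZEB2 and E protein list 5 had a member: Zeb2, Tcf4, an E protein, and Lmo2, Ldb1 and Lyl1, which join in one bridging complex of blood progenitors. Of their 12 members 11 were called in both DE lists, a count near the 85.1% of all members. The exception was chr2:103970130-103970278 in Lmo2, with folds of 7.68 and 8.04 in WT and 6.46 for H3K4me3, while its neighbour at chr2:103969374-103969702 had 14.2 and 21.7 in the WT and 7.56 and 6.90 in the DE lists. Of the 3 members assigned to Lyl1, 2 lay inside the neighbouring gene Nfix. The Tcf4 member had WT folds of 29.0 and 19.3, DE folds of 10.1 and 12.4 and an H3K4me3 fold of 7.33. Ldb1 had members over 2 internal starts, with WT folds of 18.9 and 14.8 at one and 15.6 and 12.1 at the other. Bcl11a, of the stem and progenitor list (4 of 18 genes), had its wider member over the start shown above, with folds of 15.3 and 19.2 in the WT and 21.3 and 12.9 in the DE lists, so the groups overlapped there. The H3K4me3 fold was 6.78, and H3K4me3 covered only 9.24% of that member.

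Among the monocyte and macrophage genes 3 of 24 had members: Csf1r, the receptor of M-CSF, with 2, the chemokine receptor Ccr2 with 1 and the Fc receptor gene Fcgr3 with 1 at a tRNA group 13.4 kb away. All 4 were called in both DE lists, as were 85.1% of all members. The 24 genes also had 27 regions away from gene ends without H3K4me3, 13 in both DE lists and 6 in neither. The Csf1r members had WT folds of 17.6 and 10.9 and of 15.6 and 15.7, DE folds of 10.1 and 6.45 and of 4.40 and 4.24, and H3K4me3 folds of 7.59 and 7.98, so both DE libraries were below both WT libraries. The Ccr2 member had WT folds of 16.7 and 30.02, DE folds of 11.9 and 14.6 and an H3K4me3 fold of 8.59, in the same order. Of 21 granulocyte genes 3 had members: Mpo, myeloperoxidase, and Prtn3, proteinase 3, with 3 each, and the chemokine receptor Cxcr4 with 1. Of these 7, 5 were in both DE lists, against 85.1% of all members. The other 2, 1 each at Mpo and Prtn3, were in DE replicate 1 alone. These 2 lay before the start of their gene and were weak, with WT folds of 4.74 and 3.86 at Mpo and of 3.69 and 3.62 at Prtn3. The member in Mpo at chr11:87795884-87796924 had WT folds of 6.17 and 11.5 and DE folds of 11.3 and 9.80, within 1 kb of the lncRNA gene Gm34064. At Prtn3 the member between that gene and Elane, chr10:79884324-79884787, had WT folds of 5.63 and 9.32 and DE folds of 11.7 and 11.1, both above WT. At 2 others of the 7 both DE folds were below both WT folds. The Cxcr4 member had 7.17 and 6.75 in the WT lists against 3.36 and 3.68, and the Prtn3 member at chr10:79877243-79877452 had 7.41 and 6.03 against 5.46 and 4.16. The order of the groups thus differed among the granulocyte members.

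Markers of other lineages were counted against the same 4.49% of all coding genes. The B cell list (14 genes), the T cell list (14) and the list of mast cells, basophils and eosinophils (12 on autosomes) had 0, where that share of each list is less than 1 gene, although 3 T cell genes had 5 regions away from gene ends without H3K4me3, and the dendritic cell list had 1 of 15 genes, Tcf4. Klrb1c, 1 of 13 genes of the NK list, had 3 members, at 10.9 to 17.4 kb from the gene, and Nfe2, a factor of megakaryocytes and erythroid cells and 1 of 15 genes of that list, had 3 in its body. All 6 were in both DE lists, as were 85.1% of all members.

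In the cell cycle list 5 of 17 genes had 9 members. Cdk6 had 2, of which the one over the internal start shown above had WT folds of 19 and 20.7, DE folds of 15.1 and 8.94 and an H3K4me3 fold of 12.6. Cdkn1a, the p21 inhibitor gene, had 1 at the lncRNA gene Trp53cor1, with H3K4me2 folds of 11.9 to 22.9 and near the foot of the H3K4me3 list at a place of 99.4. Ccnd3, a D-type cyclin, had 2. The member in Cdk1 and 1 of 3 at Cdkn1b, which encodes the inhibitor p27, were called in neither DE list, against 5.24% of all members. At Cdk1 (chr10:69351212-69351365) the WT folds were 4.95 and 4.83. Of 17 genes of chromatin and transcription machinery 6 had a member, and their 8 members were in both DE lists, a count near the 85.1% of all members. Among them were the H3K4 methyltransferase genes Kmt2a and Kmt2d, the demethylase genes Kdm5b and Kdm6b, and Tet3, which oxidises methylcytosine. The one at Kdm5b lay inside the neighbouring gene Mgat4e. At Kmt2a, chr9:44882618-44883085 lay 1.27 kb outside the gene with WT folds of 21.8 and 31.7, DE folds of 25.5 and 24.8 and an H3K4me3 fold of 10.5, so DE lay between the WT values. The member in Kdm6b, chr11:69418569-69419269, stood at places 1.15 and 0.147 in WT and 0.188 and 0.347 in DE, but at 71.8 in the H3K4me3 list. Of 13 housekeeping genes 6 had a member. Of the 8 members, 2, in Ywhaz and Tubb5, were called in neither, against 5.24% of all members. Each of these genes had a second member that both DE lists called. At Tubb5 that one, chr17:35837080-35837235, had an H3K4me3 fold of 15.0 against 3.92 at the one in neither DE list.

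The list of non-coding RNAs of myeloid cells had members at 9 of 39 genes. The 4.49% above is for coding genes, and no such share over all non-coding genes is given here. Of the 10 members, 8 were in both DE lists and 2 in 1, against 85.1% of all members in both. The same genes had 12 regions away from gene ends without H3K4me3, 4 in both DE lists and 3 in neither. The member beside Mir142, chr11:87756487-87756781, had the seventh strongest H3K4me3 peak of all members, a fold of 21.3, but middling H3K4me2, with WT folds of 6.09 and 11.1 and DE folds of 7.17 and 8.26. H3K4me3 covered 100% of it. At Mir425 the member chr9:108569718-108570210 lay over a start of Dalrd3, a gene that hosts this miRNA in an intron, with WT folds of 13.5 and 25.1, DE folds of 18.4 and 17.8 and an H3K4me3 fold of 10.1. The snoRNA host genes Snhg3, Snhg5 and Snhg15 and the nuclear lncRNA Malat1 had a member over their start, and the Malat1 member was called in DE replicate 2 and not in DE replicate 1. The other 3 genes of the list are not named here. Mirlet7i, a let-7 gene outside the list, had 2 members within 1 kb. In all, 9 members were within 1 kb of a miRNA gene. Among the other lncRNAs, Chaserr, which lies upstream of the chromatin remodeller gene Chd2, had a member over its start at chr7:73558348-73558865, with an H3K4me3 fold of 10.7 and H3K4me2 folds of 9.88 and 5.30 in the WT lists and 4.31 and 4.68 in the DE lists. In Ankrd17 (chr5:90366133-90366885), Dnaaf2 (chr12:69196734-69197526) and Gabpb1 (chr2:126675104-126675975) the member covered a start within 1 kb of an lncRNA gene, with H3K4me3 folds of 16.2, 14.8 and 15.1. At Gabpb1 WT replicate 1 was low, 4.40 against 15.7 in WT replicate 2, with 9.53 and 5.49 in the DE lists. The member in Rps2, a ribosomal protein gene, covered a start of the snoRNA host gene Snhg9, and that in Mdm4, a p53 inhibitor, an internal start of Mdm4.

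Members near tRNA genes numbered 46, in 31 groups that touched 68 of 391 autosomal tRNA genes, and 15 of the 46 were on chromosome 13. Such genes are read by polymerase III from promoters inside the gene. Their median fold was 7.56 and 8.69 in WT and 6.31 for H3K4me3. Of the 46, 31 were called in both DE lists (67.4%) and 4 in neither (8.70%, 3.43 to 20.3), against 26 and 23 of the 65 regions of the same position class without H3K4me3. Over all members these shares were 85.1% and 5.24%. Near Trim27, the gene with the most members, 6 of 7 were at tRNA genes.

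Several genes held rows of members. Within 5 kb of each other, the 1127 members formed 894 groups, 711 of them single and 38 of 3 or more. Tnrc18 had 6 in chr5:142814889-142822050, 5 of them in both DE lists, with H3K4me3 folds of 4.01 to 13.4. Ubtf, a factor of ribosomal RNA transcription, had 6, all in both DE lists, Baz2a, which silences ribosomal RNA genes, 5, and Midn and Mafg 4 each. The 4 nearest to Kcnrg lay 35.4 to 69.4 kb from it, 2 of them at the lncRNA gene Dleu2, and 3 of the 4 assigned to Gm9997 lay where that gene and Nin, a centrosome protein gene, overlap. The 4 near Gm15319 spread over more than 1 group. The members of such a row share a gene and often a promoter and are not independent, and 85.1% of all members were in both DE lists. Near Gm40363 on chromosome 6, 4 members outside the gene started 4246, 4356 and 4280 bp apart, and all were called in both DE lists, with H3K4me3 folds of 6.55, 4.93, 3.72 and 5.50. That even spacing was noticed after the values were seen.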

How the data were processed

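CUTAC libraries of cMoPs were sequenced as 150-base pairs of reads, per the labels' protocols. Tools named in the submitters' processing notes are Trimmomatic, Bowtie2, SAMtools, Picard and, for peaks, MACS2, in version 2.2.9.1, with the mm10 build. Not given in the sources used here were settings, control and handling of duplicates. Each deposited list belongs to 1 library, and each entry holds the authors' score, the fold over local background as a linear ratio, the −log10 p and −log10 q of the summit, and the summit offset, as deposited. The lists carry no read totals, and depth is unknown. The track line of the DE replicate 1 list names DE replicate 2; its sample follows the series record.

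Entries with the same interval were counted as 1 peak with the strongest p. Touching or overlapping autosomal intervals of the 4 H3K4me2 lists were merged, and a library called a region with at least 1 bp of overlap. Gene bounds, miRNAs and starts are from RefSeq tables of GRCm38.p6. The start table holds several starts per gene and covers 1091 of the 1127 members by chromosome. It lacks some coding genes on those chromosomes, and 917 members had a nearest coding gene with a start in it. No genome sequence was used, so the planned search around summits was not run, and the RefSeq start windows were chosen in its place after the files had been seen. Regions were not checked against repeats. The work used Python 3.11.15, pandas 2.3.3, scipy 1.17.1 and matplotlib 3.10.9, and the code was tested on simulated lists.

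Members and gene lists were chosen with earlier results of these data known. No significance test was made: shares carry 95% Wilson intervals for counting error. The text names the 10 members strongest in H3K4me3, in WT place and in width, up to 10 called in neither DE list, the 10 genes with most members, 10 members at non-coding genes, up to 6 genes per list, and 3 regions on either side of the distance limit. The Slc3a2 group and Mirlet7i were added by hand, with their values known, and some regions of the rule are not reported here. Of the 18 lists, those not described in the report had a member at H2-D1 (antigen presentation, 1 of 12 genes), Irf2 (interferon response, 1 of 13) and Csf1r and Il6ra (growth factor and cytokine receptors, 2 of 15), each in both DE lists. Alternatives covered peak strength, list length, summit and overlap rules, merging, distance, gene types and leaving out each library.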

Additional observations from a re-analysis of the deposited data

Results flagged for a closer look

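Chromosome X was outside the choice of regions, which used the autosomes. The same rule found 22 regions there, among 286 regions of X called in both WT lists and away from gene ends. Of the 22, 15 were called in both DE lists and 4 in neither, against 85.1% and 5.24% of the autosomal members. They lay at Tfe3, Kdm6a, Usp9x, Huwe1, Hcfc1, Elf4 and Flna among others, and 2 of the 3 at Flna were in neither DE list. There is no control list for these regions, so the 22 are a count only, and the labels used do not give the sex of the mice.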

How the results depend on the processing

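No paired analysis was possible because the shares come from calls in peak lists and no test was fitted. Over the 16 settings, the main one included, members had a lower share called in neither DE list, and a higher share called in both, than regions away from gene ends without H3K4me3. Under the alternatives the number of members, the share in neither and the share in both DE lists were: 556, 7.73% and 75.9% with −log10 q of at least 5; 559, 9.84% and 77.3% with 50% of the region covered by H3K4me3; and 600, 3.33% and 89.5% with the stronger 50% of H3K4me3 peaks. The shares in neither and both were 3.15% and 89.9% with H3K4me2 lists of equal length, 8.16% and 75.4% where a call needed 50% cover, and 3.51% and 88.1% with merging within 500 bp. Beyond 2 kb 718 members remained and beyond 5 kb 403, with 76.5% and 67.5% inside a coding gene and 23.4% and 29.3% within 1 kb of a non-coding gene end. With a −log10 q of at least 5, 84.5% were inside a coding gene. With ends of all gene types it was 89.0%, and the non-coding share 0 by construction. Also keeping more than 1 kb from every RefSeq start, an alternative added after the data were seen and run on the autosomes with starts, left 569 members, 7.38% in neither DE list, 82.6% in both, 72.4% inside a coding gene and 13.4% near a non-coding end. Starts missing from the table removed no member there. Without 1 library each, the number of members ranged from 1143 to 1220, the share inside a coding gene from 81.7% to 82.4%, the non-coding share from 19.2% to 19.4%, the share in neither from 6.56% to 12.3%, and the share in both from 79.9% to 92.0%. The share in neither moved by over 1.5 times without WT replicate 1 (8.20%), without DE replicate 1 (12.3%) and without DE replicate 2 (7.96%), where a single DE list decides. Depth limits all calls: a peak that is not listed may be one that was too shallow to call.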
